A study of Mus musculus with 18 samples.

Results

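The genes described here are 8 neurotrophin and joint pain genes, Ngfr, Bdnf, Ntf3, Ntrk2, Ntrk3, Calca, Tac1 and Tacr1. They were chosen by name from 49184 genes to which the deposited transcripts could be assigned, by a rule that uses no measured value, although earlier results of these data were known. All 8 were found in the files, and 6 of them passed the filter on low counts, whereas Calca and Tac1 did not. RNA was measured by total RNA sequencing, after removal of ribosomal RNA, in 18 libraries of femoral condyle cartilage from male C57Bl/6J mice that were 12 weeks old. The right knee was injured by a single 12 N load that ruptured the anterior cruciate ligament (ACL), and the left knee of the same mice served as the contralateral control. The groups were naïve cartilage, labelled with the day 7 time point (n = 6), day 1 injured, day 1 contralateral, day 7 injured and day 7 contralateral (n = 3 each). The mice were loaded under isoflurane anaesthesia and received the opioid buprenorphine under the skin when the experiment began. Whether naïve mice received either agent is not stated in the sources used here, so the injury and these agents cannot be told apart against naïve, whereas the contralateral knees came from the same treated mice. No transgene is named. Per the methods of the study, cartilage of 2 mice was pooled in each day 1 library and of 4 mice in each day 7 library, and 6 naïve mice gave the naïve libraries with left and right knees apart, so that naïve libraries share mice, although the deposited design text gives 4 mice per sample. Depth, as the sum of estimated counts, lay between 16074762 in naïve replicate 2 and 41794005 in day 1 contralateral replicate 3 (median 25465706).

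Neurotrophins are secreted growth factors that keep sensory neurons alive and raise the sensitivity of pain fibres. BDNF binds the receptor tyrosine kinase TrkB, encoded by Ntrk2, and neurotrophin-3, encoded by Ntf3, binds mainly TrkC, encoded by Ntrk3. Ngfr encodes the receptor p75NTR, which binds all neurotrophins and their uncleaved precursors. Tac1 and Calca encode the neuropeptides substance P and calcitonin gene-related peptide (CGRP) of pain fibres, and Tacr1 encodes the substance P receptor NK1, which is also found on cells other than neurons.

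The tissue was labelled as chondrocyte, and all 14 chondrocyte markers examined passed the filter, with Col2a1, the main collagen of cartilage, at 3240 CPM in naïve libraries. CPM are estimated counts scaled to a common library size, here by the trimmed mean of M values (TMM). Markers of other tissues were also present in naïve libraries. The 7 erythroid markers summed to 34500 CPM, the 10 skeletal muscle markers to 6679 CPM and the 8 adipocyte markers to 548 CPM. The day 7 contralateral replicate 1 library stood apart, with 42.5% of its counts in its 10 most abundant genes, against 16.6% to 29.8% in the other libraries. The study states that it left out a library of this injury model for a low mapping rate, without saying which, and all 18 libraries given here were kept. In such bulk samples, a lower level of a gene can reflect fewer cells of a type or less RNA per cell, and these cannot be told apart.

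At day 7 the injured cartilage held more Tacr1, Bdnf and Ngfr RNA than naïve cartilage, by 5.15-fold, 3.17-fold and 2.10-fold. Tacr1 and Bdnf were also called higher than in the contralateral knee, and of the 6 members tested only Tacr1 was called higher than at day 1. Ntrk2 and Ntrk3, the most abundant of the 8 genes in naïve libraries, were not called different in any comparison, and neither was Ntf3. A gene was called at a false discovery rate (FDR) of at most 0.05, from edgeR's quasi-likelihood test with Benjamini-Hochberg adjustment over all genes tested, with a change of at least 1.5-fold. Against naïve, 3 of the 6 members tested were called higher and 0 lower, beside 10.4% of all 21129 genes called higher and 6.11% called lower. Against the contralateral knee, 2 of 6 were called higher, beside 9.33% of 21262 genes called higher and 3.23% called lower. With 6 genes tested, these counts describe the members and no more. The calls over naïve were repeated under 17 alternatives, with other settings or with a library left out. They held in 17 for Tacr1, 16 for Bdnf and 9 for Ngfr.

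**Figure D1:**
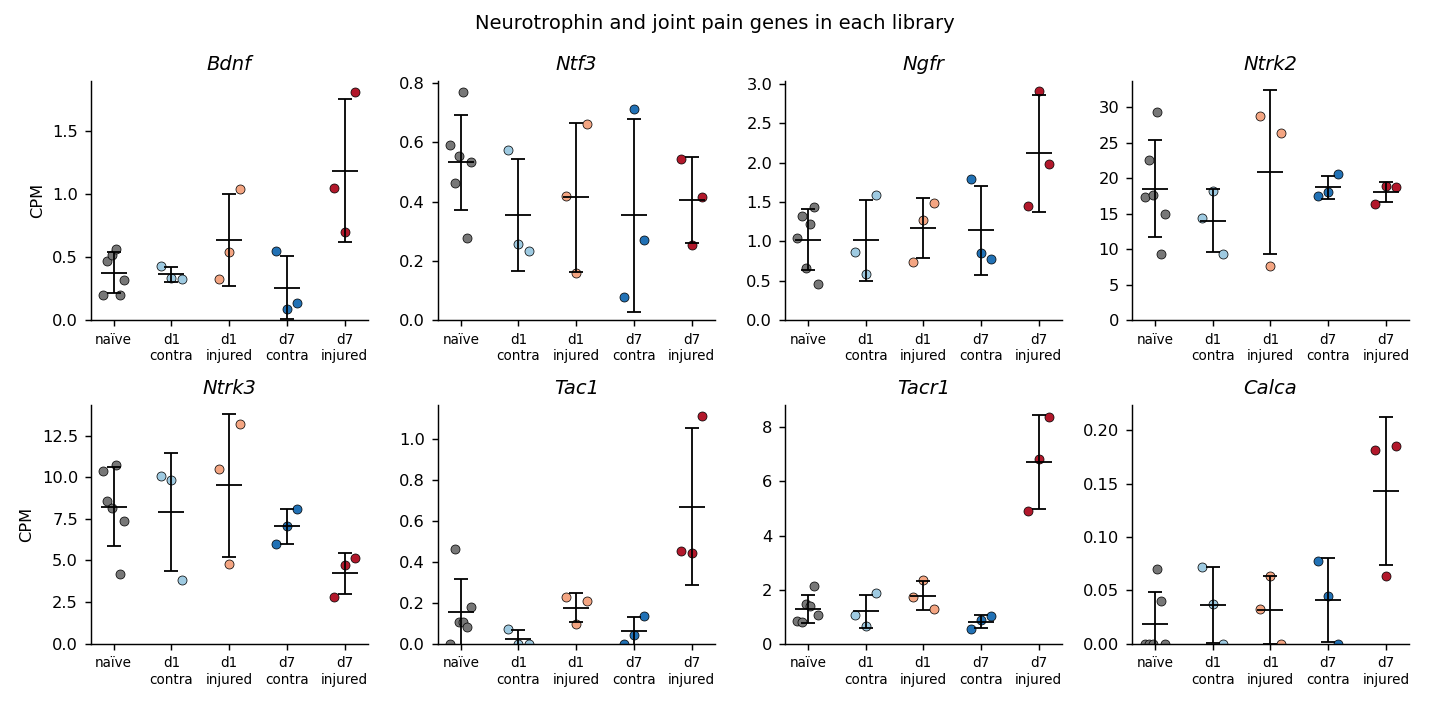
CPM of each of the 8 genes (vertical axes, linear, a different range in each panel) in every library (points) of the 5 groups, with the group mean and SD (bars, drawn down to 0 at the lowest). All 3 day 7 injured libraries lie above every other library for Tacr1, from 4.90 to 8.37 CPM, while Ntrk2 and Ntf3 overlap in all groups.

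Among the ligands, Bdnf was measured at 1.04, 0.697 and 1.80 CPM in day 7 injured replicates 1, 2 and 3. In naïve libraries it ranged from 0.198 to 0.560 CPM with a median of 0.392, and in the day 7 contralateral libraries it was 0.545, 0.0892 and 0.135 CPM. In CPM, all 3 day 7 injured libraries were thus above all naïve and all day 7 contralateral libraries. The log2 fold change was 1.66 (SE 0.40, FDR = 0.00581 by edgeR) over naïve and 2.45 (SE 0.60, FDR = 0.00839 by edgeR) over the contralateral knee. These values rest on few reads, since Bdnf had at most 39 estimated counts in a library and between 2 and 7 in the contralateral libraries at day 7. Without day 7 injured replicate 3, the FDR by edgeR was 0.0735 over naïve and 0.0632 over contralateral, and the call was lost in both. The call over contralateral was also lost with only the compared groups in the fit (FDR = 0.0536 by edgeR). Without day 7 contralateral replicate 1, which held the most Bdnf of its group, the log2 fold change over contralateral was 3.35. Bdnf lies on chromosome 2 (GRCm38, chr2:109674700-109727007, plus strand), and an antisense gene that shares 896 exon bases with it, Gm45346, was at 0 counts in all libraries.

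In day 1 injured libraries Bdnf was at 0.323, 0.540 and 1.04 CPM, which overlapped both the naïve and the day 7 injured libraries. The order of the group means of Bdnf in CPM was day 7 injured, day 1 injured, naïve, day 1 contralateral and day 7 contralateral, and the ranges of all neighbours in that order overlapped. In TPM, the deposited abundance scaled by length and without the TMM scaling of CPM, the first 2 were reversed. Bdnf was then at 0.136 ± 0.0999 in day 1 injured and 0.131 ± 0.0772 in day 7 injured libraries (SD, n = 3). Day 7 injured replicate 2, at 0.0747 TPM, lay below naïve replicate 3, at 0.0759 TPM, so day 7 injured and naïve libraries overlapped in TPM. The ratio of their mean TPM was 2.56. Why CPM and TPM differed here was not tested.

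Ntf3 (chr6:126101412-126166910, minus strand) was between 0.253 and 0.545 CPM in day 7 injured libraries and between 0.279 and 0.770 CPM in naïve libraries. Every library had at most 22 estimated counts, and all 5 groups overlapped. Its log2 fold change over naïve was -0.35 (SE 0.45, FDR = 0.585 by edgeR), which was not called.

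Among the receptors, Ngfr (chr11:95568818-95587735, minus strand) was at 1.45, 2.92 and 1.99 CPM in day 7 injured replicates 1 to 3. The naïve libraries ranged from 0.463 to 1.43 CPM with a median of 1.13, so that the lowest injured library lay just above the highest naïve one. Day 7 contralateral replicates 1 to 3 were at 1.79, 0.847 and 0.777 CPM. They overlapped the injured libraries through replicate 1 only, the library that stood apart. The log2 fold change was 1.07 over naïve (SE 0.37, FDR = 0.0419 by edgeR) and 0.95 over contralateral (SE 0.46, FDR = 0.168 by edgeR). Only the first was called, and that call was lost in 8 of 17 alternatives, among them the fit of all 18 libraries and the omission of naïve replicate 1, 3 or 6 or of day 7 injured replicate 2 or 3, where the FDR by edgeR reached 0.206. The mean levels were 2.12 ± 0.739 CPM in day 7 injured, 1.17 ± 0.385 in day 1 injured, 1.14 ± 0.567 in day 7 contralateral and 1.01 ± 0.517 in day 1 contralateral libraries (SD, n = 3) and 1.02 ± 0.387 in naïve libraries (SD, n = 6), and all neighbours in their order overlapped. In TPM, Ngfr was at 0.273 ± 0.127 in day 1 injured and 0.270 ± 0.106 in day 7 injured libraries (SD, n = 3). Day 7 injured replicate 1, at 0.160 TPM, then lay inside the naïve range of 0.071 to 0.240 TPM. The ratio of the mean TPM in day 7 injured to naïve libraries was 1.72.

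Ntrk2 (chr13:58806569-59133970, plus strand) was at 16.4, 18.9 and 18.8 CPM in day 7 injured libraries. Naïve libraries ranged from 9.27 to 29.4 CPM with a median of 17.5, and the day 7 contralateral libraries were at 17.5, 18.01 and 20.6 CPM. The 3 day 7 injured values lay inside the naïve range, and the log2 fold change was -0.02 over naïve (SE 0.37, FDR = 0.973 by edgeR) and -0.05 over contralateral (SE 0.40, FDR = 0.948 by edgeR). The widest spread was in day 1 injured libraries, at 28.7, 7.66 and 26.4 CPM, and the lowest mean in day 1 contralateral libraries, at 14.4, 18.2 and 9.37 CPM. All neighbours in the order of the group means overlapped.

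Ntrk3 (chr7:78175959-78738012, minus strand) was at 2.82, 4.75 and 5.13 CPM in day 7 injured libraries. Naïve libraries ranged from 4.18 to 10.8 CPM with a median of 8.35, and the day 7 contralateral libraries were at 6.001, 7.04 and 8.11 CPM. The injured libraries were below all contralateral libraries at day 7 but overlapped naïve replicate 5. The log2 fold change was -0.94 over naïve (SE 0.38, FDR = 0.0754 by edgeR), -0.75 over contralateral (SE 0.41, FDR = 0.228 by edgeR) and -1.15 over day 1 injured (SE 0.42, FDR = 0.0607 by edgeR), none of which was called. Day 1 injured libraries, at 10.5, 4.80 and 13.2 CPM, had the highest mean of the 5 groups, and only the lowest neighbours in that order, day 7 contralateral and day 7 injured, did not overlap. Ntrk3 was called lower over naïve in 3 of 17 alternatives, by DESeq2 (adjusted p = 0.0278), with an offset for transcript length (FDR = 0.0424 by edgeR) and without naïve replicate 5 (FDR = 0.0348 by edgeR).

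Naïve replicate 5, day 1 contralateral replicate 3 and day 1 injured replicate 2 had the lowest Ntrk2 level of their groups, at 9.27, 9.37 and 7.66 CPM, and also the lowest Ntrk3 level, at 4.18, 3.83 and 4.80 CPM. The same 3 libraries had the lowest summed level of the 8 adipocyte markers in their groups, at 283, 295 and 223 CPM, and of the 10 skeletal muscle markers, at 3048, 4428 and 3368 CPM. They also had the highest Tacr1 level of their groups, at 2.15, 1.87 and 2.35 CPM. In the other groups the adipocyte sum did not follow Ntrk2 and Ntrk3. Day 7 contralateral replicate 1 had the lowest Ntrk2 and Ntrk3 level and the highest adipocyte sum of its group, at 760 CPM, and in day 7 injured libraries replicate 1 was lowest for both genes and replicate 3 for the adipocyte sum, at 187 CPM. The muscle sums of day 7 contralateral replicates 1 to 3, at 4235, 4394 and 5032 CPM, stood in the same order as Ntrk2 and Ntrk3, and those of the day 7 injured replicates, at 4880, 2354 and 4132 CPM, did not. At day 7 the adipocyte markers summed to 231 ± 43.1 CPM in injured libraries (SD, n = 3) against 651 ± 116 in contralateral libraries (SD, n = 3) and 548 ± 206 in naïve libraries (SD, n = 6). The part of these markers in the Ntrk3 and Tacr1 values was not tested.

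Both Trk receptor genes also give transcripts that end before the kinase. The truncated receptors keep the ligand-binding part and lack the tyrosine kinase, so the counts of a gene do not tell which receptor they stand for. Transcripts of a gene were grouped by the position of their stop codon, and the sequences that separate the main groups are shown here because they distinguish receptors with a kinase from those without. Lower case gives the last 30 coding bases that are shared, and capitals the coding bases that follow in each transcript, up to its stop codon or for 60 bases at most, 5′ to 3′.
Ntrk2-202, truncated, 476 residues, capitals at chr13:58932024-58932060: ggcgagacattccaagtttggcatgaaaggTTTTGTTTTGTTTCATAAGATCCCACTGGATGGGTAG
Ntrk2-201, kinase, 821 residues, capitals at chr13:58985803-58985862: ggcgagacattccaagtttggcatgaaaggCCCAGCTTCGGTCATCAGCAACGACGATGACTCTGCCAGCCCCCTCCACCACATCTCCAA
Ntrk3-202, truncated, 612 residues, capitals at chr7:78304367-78304426, minus strand: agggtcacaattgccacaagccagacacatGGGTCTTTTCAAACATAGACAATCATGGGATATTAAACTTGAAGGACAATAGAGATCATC
Ntrk3-201, kinase, 825 residues, capitals at chr7:78260355-78260414, minus strand: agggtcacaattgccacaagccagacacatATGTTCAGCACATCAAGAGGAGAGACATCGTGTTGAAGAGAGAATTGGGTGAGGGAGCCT

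The Ntrk2 transcripts shared 1394 coding bases, after which the truncated form ran for 37 bases, all in its last coding exon, and the kinase form for 1072 bases, both including the stop codon. The Ntrk3 transcripts shared 1585 coding bases, and 254 bases followed in the truncated and 893 in the kinase form. The sequences and coordinates are from GENCODE M21 on GRCm38, and all transcripts shown had the same length in the deposited files.

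Ntrk2 RNA in this cartilage was mostly of the truncated class, annotated as Ntrk2-202 and Ntrk2-204. It took 88.7% ± 2.17 of the estimated Ntrk2 counts in naïve libraries (SD, n = 6), 90.4% ± 1.74 in day 7 contralateral (SD, n = 3) and 88.9% ± 5.28 in day 7 injured libraries (SD, n = 3). The kinase class took 2.97% ± 0.331, 2.78% ± 0.434 and 1.37% ± 0.753 in the same groups. Per length the order was the same, with 1.76 ± 0.587 TPM, the length-scaled abundance, of the truncated class and 0.0350 ± 0.0150 TPM of the kinase class in naïve libraries (SD, n = 6). A further class without the kinase, Ntrk2-205 with 492 residues, took 4.05% ± 2.85 of counts in naïve (SD, n = 6) and 6.94% ± 3.82 in day 7 injured libraries (SD, n = 3).

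The share of the Ntrk2 kinase class was lower by 1.60 percentage points in day 7 injured than in naïve libraries. The 3 injured libraries, from 0.652% to 2.15%, lay below all 6 naïve libraries, from 2.52% to 3.41%, and the exact two-sided permutation test gave p = 0.0238, the smallest that 3 against 6 libraries can give. After Benjamini-Hochberg adjustment over 12 transcript classes it was 0.0952, so the difference was not called. The values come from 2.65 to 7.77 estimated counts per injured library, and against contralateral the exact permutation p was 0.10, again the smallest possible. The kinase share was 1.06% to 2.84% in day 1 contralateral and 2.085% to 5.26% in day 1 injured libraries. Both ranges overlapped that of the day 7 injured libraries. The share of the truncated class differed by 0.196 percentage points between day 7 injured and naïve libraries, less than the spread between libraries.

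Ntrk3 was more evenly divided, and the order of its classes depended on the measure. The kinase class, transcripts of 825 residues and 2 longer ones with the same stop codon, took 58.2% ± 5.63 of the estimated Ntrk3 counts in naïve libraries and the truncated class 26.7% ± 6.97 (SD, n = 6), while transcripts without a coding sequence took 14.4% ± 5.14 (SD, n = 6). Per length the truncated class was higher, at 0.300 ± 0.117 TPM against 0.162 ± 0.0778 TPM (SD, n = 6), since the main kinase transcript is 19703 bases long and the truncated one 3977. In day 7 injured libraries the shares of counts were 57.2% ± 3.95 and 24.6% ± 4.80 (SD, n = 3), and both differed from naïve by less than the spread between libraries (exact permutation p = 0.762 and 0.571). The 2 levels per length were then 0.0583 ± 0.0149 TPM and 0.117 ± 0.0521 TPM (SD, n = 3).

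**Figure D2:**
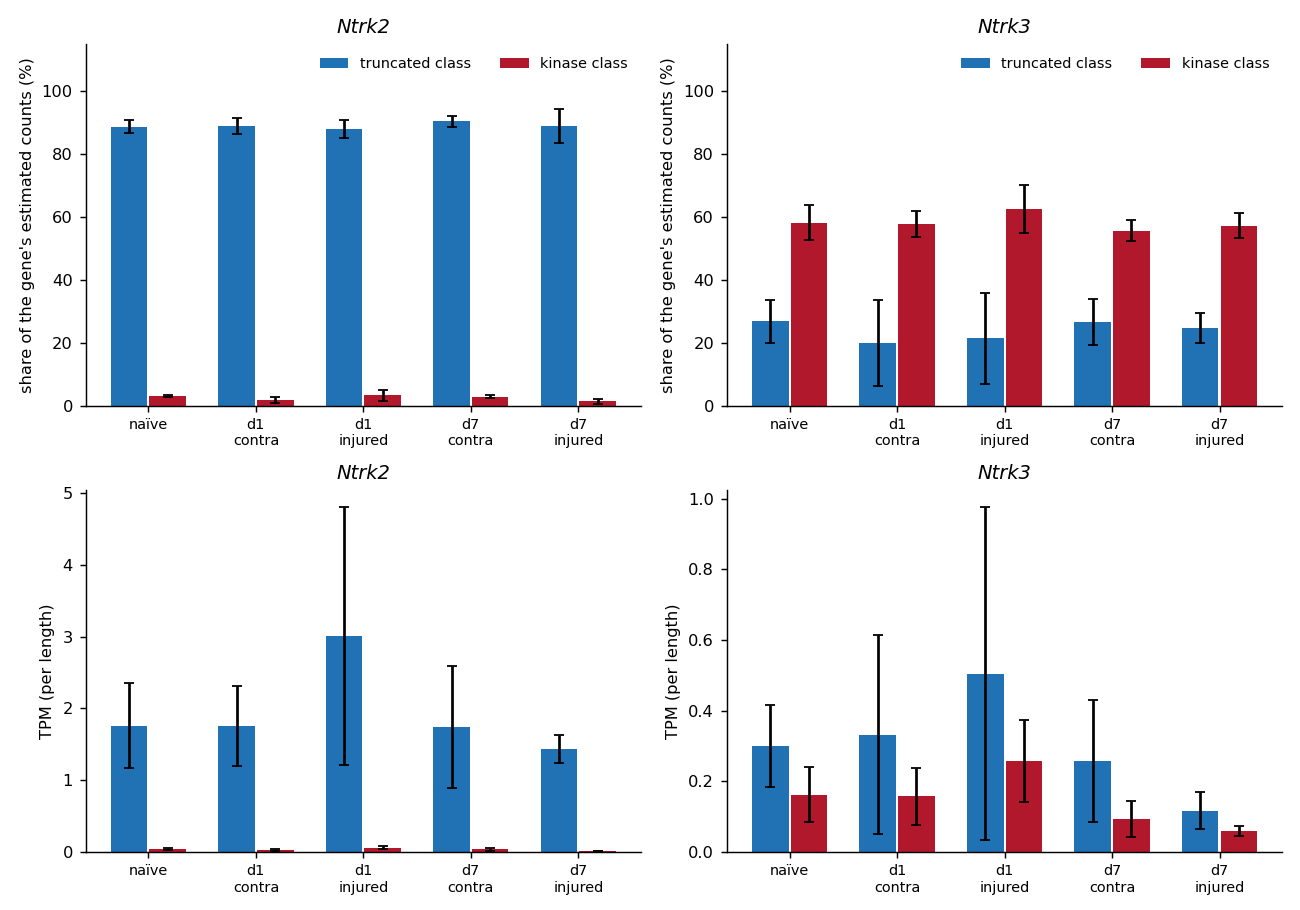
Truncated (blue) and kinase (red) transcript classes of Ntrk2 and Ntrk3 in the 5 groups, as the share of the gene's estimated counts (upper panels) and in TPM, which is per length (lower panels, linear axes of different range). Bars are group means and error bars SD (n = 6 naïve, n = 3 in the other groups). The truncated class leads for Ntrk2 on both measures, and for Ntrk3 only per length.

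Among the neuropeptide genes, Tacr1 (chr6:82402334-82560104, plus strand) had the largest change over naïve and over contralateral of the 6 members that passed the filter. Over contralateral this ranking turned without day 7 contralateral replicate 1, where the log2 fold change of Bdnf was 3.35. That of Tacr1 was at most 3.16 as any library was left out. Tacr1 was at 4.90, 6.84 and 8.37 CPM in day 7 injured replicates 1 to 3, from 108, 108 and 181 estimated counts. Naïve libraries ranged from 0.795 to 2.15 CPM with a median of 1.24, and the day 7 contralateral libraries were at 0.545, 0.892 and 1.01 CPM. No library of another group reached the lowest day 7 injured library, the highest of them being day 1 injured replicate 2 at 2.35 CPM. The log2 fold change was 2.37 over naïve (SE 0.31, FDR = 4.44e-05 by edgeR) and 2.98 over contralateral (SE 0.41, FDR = 5.32e-05 by edgeR). Over day 1 injured it was 1.92 (SE 0.38, FDR = 0.00204 by edgeR), the only call among the 6 members in that comparison, in which 9.04% of all genes were called higher and 6.38% lower. The Tacr1 calls over naïve and over contralateral held in all 17 and all 14 alternatives run. Nearly all Tacr1 counts were of transcripts that code for 407 residues, at 97.0% in day 7 injured libraries. A transcript with a retained intron and no coding sequence took the other 3.01%, a mean of 3.46 estimated counts per library, and none in naïve libraries, where the whole gene had a mean of 32.8. The exact permutation p was 0.0238, the smallest possible, and 0.0952 after adjustment over the 12 classes, so this was not called. As for Ntrk2, so few libraries could hardly give a call. The coding and noncoding shares of Tacr1 mirror each other but count as separate classes among the 12.

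The mean level of Tacr1 was 6.71 ± 1.74 CPM in day 7 injured (SD, n = 3), 1.78 ± 0.537 in day 1 injured (SD, n = 3), 1.29 ± 0.507 in naïve (SD, n = 6), 1.20 ± 0.614 in day 1 contralateral (SD, n = 3) and 0.817 ± 0.243 in day 7 contralateral libraries (SD, n = 3). The first and second in this order did not overlap, while the remaining neighbours did. The injury effect, injured over contralateral, was larger at day 7 than at day 1 by 2.43 on the log2 scale (SE 0.55, FDR = 0.0180 by edgeR). Tacr1 was the only 1 of 6 members called in that test of the difference, beside 3.53% of all genes called higher and 0.245% called lower. Without day 1 contralateral replicate 3 the difference was 1.93 (FDR = 0.0835 by edgeR), and without day 7 injured replicate 3 it was 2.24 (FDR = 0.0670 by edgeR), so the call was lost in both.

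**Figure D3:**
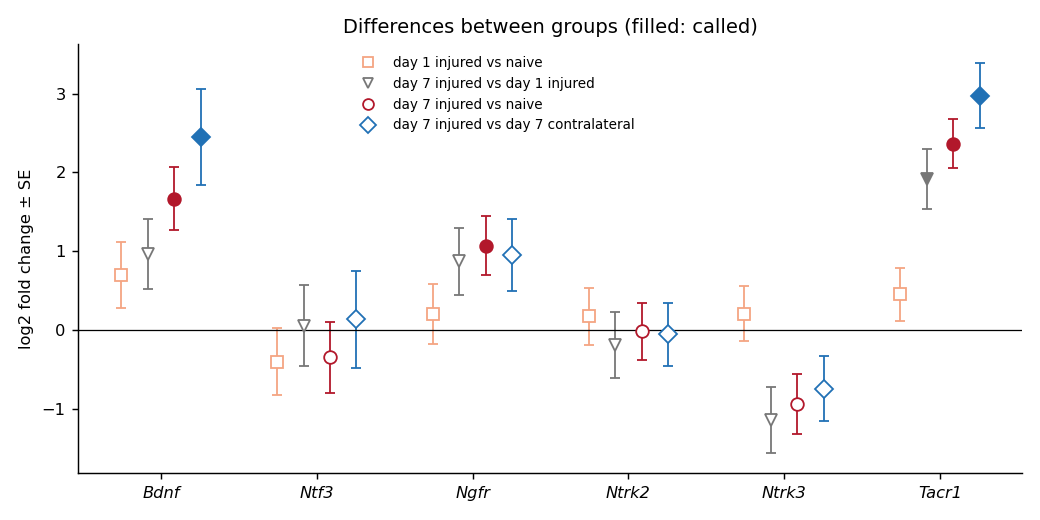
Log2 fold change with its standard error (vertical axis) of the 6 members that passed the filter, in 4 comparisons. Filled symbols were called (FDR at most 0.05 and at least 1.5-fold). Tacr1 is filled in the 3 comparisons of day 7 injured cartilage, Bdnf in 2 and Ngfr in 1, and no day 1 value is filled.

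Tac1 (chr6:7554879-7565834, plus strand), whose peptide is the ligand of NK1, was near the detection floor, set at 3 estimated counts per library, which is 0.0701 to 0.234 CPM. It had 10, 7 and 24 estimated counts in day 7 injured libraries and between 0 and 7 in every other library. In CPM the injured libraries were at 0.454, 0.444 and 1.11, above all libraries of the other groups except naïve replicate 2 at 0.464. In day 1 contralateral libraries it was at or under the floor throughout. It did not pass the filter and was not tested in the fit of the other members. Without that filter its log2 fold change was 2.22 over naïve (SE 0.63, FDR = 0.0208 by edgeR), past the threshold, as 9.23% of 35963 genes were, and 3.11 over contralateral (SE 0.89, FDR = 0.0280 by edgeR), as 7.03% of 36310 genes were. It was not called in that fit over day 1 injured (1.93, SE 0.73, FDR = 0.0988 by edgeR) or for day 1 injured over day 1 contralateral (2.79, SE 1.09, FDR = 0.862 by edgeR), and the difference of the injury effects between the time points was 0.32 (SE 4.21).

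Calca (chr7:114631478-114636357, minus strand) was at the floor in 4 of the 5 groups and had at most 4 estimated counts in any library. The day 7 injured libraries held 4, 1 and 4 estimated counts, and 4 of the 6 naïve libraries held 0. It was not tested, and no fold is given for so few counts. In the fit without the filter it was not called over naïve (FDR = 0.0886 by edgeR).

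Levels of the members were compared with each other per length. In naïve libraries the order in mean TPM was Ntrk2 at 2.19 ± 0.674, Ntrk3 at 1.05 ± 0.274, Ntf3 at 0.226 ± 0.0701, Ngfr at 0.157 ± 0.0586, Tacr1 at 0.141 ± 0.0624, Tac1 at 0.102 ± 0.0903, Bdnf at 0.0510 ± 0.0198 and Calca at 0.0269 ± 0.0442 (SD, n = 6). Ntf3, Ngfr, Tacr1, Tac1, Bdnf and Calca followed each other within their spread. Of all genes, 22.7% had a higher mean TPM than Ntrk2 and 53.6% a higher one than Bdnf. In day 7 injured libraries Tacr1 was at 0.606 ± 0.216 TPM and Ntrk3 at 0.500 ± 0.163 TPM (SD, n = 3).

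At day 1 none of the members was called, and neither was any other gene. Day 1 injured against naïve called 0.0% of 21129 genes by edgeR, with 959 at an unadjusted p under 0.05, while DESeq2 called 15 and limma-voom 0. Day 1 injured against day 1 contralateral called 0.0%, with 1383 at an unadjusted p under 0.05 and 0 by DESeq2 and limma-voom. Tacr1 had a log2 fold change of 0.45 (SE 0.34, FDR = 0.987 by edgeR) in the first and 0.54 (SE 0.39, FDR = 0.807 by edgeR) in the second. The contralateral knees against naïve called 0.0% at day 1 and 0.0% at day 7, with 554 and 3220 genes at an unadjusted p under 0.05, 2 and 31 by DESeq2 and 0 and 0 by limma-voom. None of the genes that DESeq2 called in these comparisons was a member. The comparisons of day 7 injured cartilage share their injured libraries, and several share the naïve libraries, so their values are set side by side and do not support each other.

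The other genes of the same pathways were described by lists, each beside the log2 fold change at the median of all genes tested, -0.04 over naïve and -0.05 over contralateral. The share of all genes called higher, to be read beside each count, was 10.4% over naïve and 9.33% over contralateral. Of 9 other neurotrophin genes tested, 3 were called higher and 0 lower over naïve, with a list median of 0.38. Among them were Sorcs2, a sortilin-family receptor that pairs with p75NTR, which rose from 12.0 to 54.2 CPM (log2 fold change 2.19, SE 0.30, FDR = 5.79e-05 by edgeR), and Rtn4r, the Nogo receptor (0.68, SE 0.20, FDR = 0.0182 by edgeR). Over contralateral 2 were higher and 1 lower, the latter being Sorl1, another sortilin-family receptor, at 305 against 489 CPM (-0.68, SE 0.14, FDR = 0.00170 by edgeR).

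Of 7 genes for processing of neurotrophin precursors, 2 were called higher over naïve and 3 over contralateral, with list medians of 0.50 and 0.40. Plat, the tissue plasminogen activator, rose from 8.22 to 26.4 CPM over naïve (1.70, SE 0.23, FDR = 6.26e-05 by edgeR), and Pcsk5, a proprotein convertase, from 15.7 to 37.8 CPM (1.28, SE 0.40, FDR = 0.0247 by edgeR). Of 21 adaptors of Trk and p75 receptors, 3 were called higher over naïve and 2 over contralateral, with medians of 0.30 and 0.23, counts near the share over all genes. Maged1, which binds p75NTR, rose from 72.5 to 222 CPM over naïve (1.63, SE 0.17, FDR = 3.08e-06 by edgeR), and Shc2 and Plcg1, adaptor and effector of Trk kinases, rose by 1.56 (SE 0.14) and 0.74 (SE 0.09). The call of Plcg1 over naïve was lost with the offset for transcript length.

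Of 6 other genes of the tachykinin system that were tested, 4 were called higher and 0 lower over naïve, and 4 higher and 1 lower over contralateral, with list medians of 0.69 and 0.78. The 4 were the same peptidases in both, Mme, Ace, Ece1 and Ece2. Mme (neprilysin) is a peptidase that degrades substance P, and the action of the others on it is not described here. Mme rose from 35.4 to 60.8 CPM (0.80, SE 0.10, FDR = 1.90e-05 by edgeR) and Ece2 from 1.24 to 6.51 CPM over naïve (2.41, SE 0.41, FDR = 0.000457 by edgeR). Ace rose by 0.71 (SE 0.13). The call of Ece1 was lost over naïve without day 7 injured replicate 3 and over contralateral with the length offset. Tac2, which encodes neurokinin B, was at 0.738 CPM in day 7 injured and 1.56 CPM in day 7 contralateral libraries (-1.05, SE 0.33, FDR = 0.0336 by edgeR), a call that held in 6 of 14 alternatives and was lost without day 7 contralateral replicate 1 or day 7 injured replicate 1 or 3.

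Of 7 genes of the CGRP and calcitonin family that were tested, 1 was called higher over naïve and 0 over contralateral, with list medians of 0.17 and 0.11. It was Ramp2, the partner that makes Calcrl a receptor for adrenomedullin, which rose from 8.54 to 15.6 CPM (0.89, SE 0.20, FDR = 0.00327 by edgeR). Calcrl itself was at 63.3 CPM in day 7 injured and 57.0 CPM in naïve libraries, and Ramp1, which with Calcrl forms the CGRP receptor, at 14.4 and 18.3 CPM, neither of them called. Of 7 genes of the GDNF family, another group of neurotrophic factors, 3 were called higher over naïve and 2 over contralateral, with list medians of 0.40 and 0.45. They were the receptor kinase Ret, from 8.40 to 16.2 CPM over naïve (0.96, SE 0.29, FDR = 0.0223 by edgeR), the co-receptor Gfra1 (0.89, SE 0.19) and, over naïve only, the co-receptor Gfra4 (1.19, SE 0.20). Several of these calls hung on single libraries. Those of Ret, Pcsk5 and Rtn4r over naïve were lost without day 7 injured replicate 1 or 3 (Ret also without replicate 2), that of Pcsk5 over contralateral without any 1 of the 6 libraries compared, and that of Ret over contralateral without day 7 contralateral replicate 3 or day 7 injured replicate 3. The calls of Sorcs2, Plat, Maged1, Shc2, Mme, Ace and Ece2 over naïve were not lost as any library was left out.

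**Figure D4:**
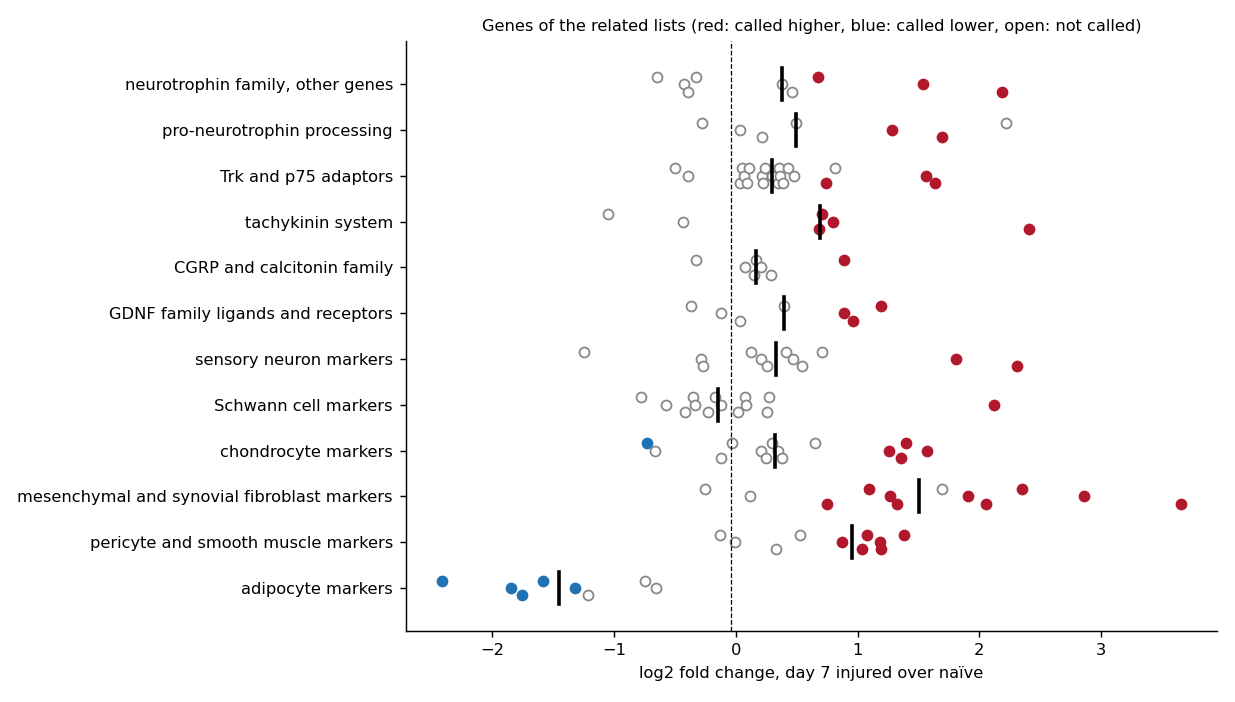
Log2 fold change of day 7 injured over naïve libraries (horizontal axis) for each gene tested in 6 pathway lists and 6 marker lists, with the median of each list (black bar) and of all genes (dashed line, -0.04). Red genes were called higher, blue genes lower and open genes not called. Most adipocyte markers lie far left and most mesenchymal markers far right, while the sensory neuron and Schwann cell lists straddle the dashed line.

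Markers of nerve and its sheath were examined next. Of 12 sensory neuron markers tested, 2 were called higher over naïve, Prph (2.31, SE 0.48, FDR = 0.00209 by edgeR) and Gap43 (1.81, SE 0.50, FDR = 0.0142 by edgeR), which encode an intermediate filament of peripheral neurons and a protein of growing axons. The list median was 0.33. Over contralateral 1 was called, Gap43 (2.23, SE 0.64, FDR = 0.0216 by edgeR), and the calls of Gap43 were lost without day 7 injured replicate 3. The 19 listed sum to 15.5 ± 1.01 CPM in day 7 injured (SD, n = 3) and 12.4 ± 1.09 CPM in naïve libraries (SD, n = 6). Uchl1 had the highest CPM of them. Scn10a, a sodium channel that defines pain neurons, was at 0 in every library, and 3 of the 19 markers had at most 3 estimated counts in all libraries. Only RNA of dissected cartilage was measured. Low counts of these markers, or of Tac1 and Calca, therefore do not tell whether nerve fibres or their peptides were present in the joint. Of 14 Schwann cell markers tested, 1 was called higher, Gldn (2.12, SE 0.26, FDR = 1.76e-05 by edgeR), beside a list median of -0.15, and Gldn was again the only 1 over contralateral. The 15 listed sum to 99.2 ± 6.09 CPM in day 7 injured (SD, n = 3) and 110 ± 9.31 CPM in naïve libraries (SD, n = 6). Mbp was the highest of them, at 58.4 and 69.3 CPM, and made up most of both sums. Which cells its RNA came from was not tested.

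The largest shifts were in connective tissue and fat. Of 12 mesenchymal and synovial fibroblast markers 9 were called higher over naïve, with a median of 1.51, and their sum was 76850 ± 5428 CPM in day 7 injured libraries (SD, n = 3) against 15370 ± 3399 CPM in naïve (SD, n = 6), the gene with the highest CPM being Col1a1, at 50920 and 12420. Col3a1 rose by 3.65 (SE 0.27, FDR = 1.26e-07 by edgeR) and Lum, a collagen-binding proteoglycan, by 2.86 (SE 0.13, FDR = 1.81e-09 by edgeR). In day 7 contralateral libraries the sum was 57060, 17660 and 24070 CPM. Of 10 pericyte and smooth muscle markers, led by Rgs5, 6 were called higher, with a median of 0.96, and their sum was 1092 ± 129 CPM (SD, n = 3) against 610 ± 68.7 CPM in naïve (SD, n = 6). Of 8 adipocyte markers, led by Cfd, 5 were called lower over naïve, with a median of -1.45, and 5 over contralateral, with a median of -1.69. Without day 7 injured replicate 3, Plin4 alone of the 5 kept its call over naïve, and none of the 5 kept it over contralateral.

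Of 14 chondrocyte markers 4 were called higher and 1 lower over naïve, with a median of 0.32. Acan, the cartilage proteoglycan, rose by 1.57 (SE 0.20), Comp by 1.40 (SE 0.20), Sox9, the transcription factor of chondrocytes, by 1.36 (SE 0.19) and Col11a1 by 1.26 (SE 0.19), while Chad fell by 0.73 (SE 0.26). Of 10 endothelial markers 5 were called higher, led by Emcn at 1.04 (SE 0.14), with a median of 0.58. Of the 10 osteoblast and osteocyte markers Col1a1 and Ibsp were higher and Sost and Mepe lower, with a median of -0.15. The macrophage markers had 0 of 9 called over naïve by edgeR, with a median of 0.31, and 1 over contralateral, Cd163, which was lower, a call lost without day 7 contralateral replicate 1 and with only the compared groups in the fit. The neutrophil and marrow myeloid markers had 2 of 8 lower, S100a8 and S100a9, with a median of -0.37. Of the erythroid markers 4 of 7 were lower, among them Alas2, an enzyme of haem synthesis, with a median of -0.60. Ms4a1, which encodes CD20, was the only 1 lower of 7 B cell markers, with a median of -0.29. Myh2, a myosin of muscle fibres, was the only 1 lower of 10 skeletal muscle markers, with a median of -0.76. The calls of Chad, S100a8, S100a9 and Myh2 were each lost as any of several libraries was left out, and that of Mepe without naïve replicate 3 or day 7 injured replicate 1. The part of these shifts in the values of Tacr1, Bdnf and Ngfr was not tested.

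For each member that passed the filter, the genes whose level was most like it over the 18 libraries were taken by Pearson's r of log2 CPM among 21261 genes. The libraries share the injury, so r describes these samples only. Tacr1 was followed most closely by Ephb2 (r = 0.977) and Bnc2 (r = 0.975), with Sulf1 and Vgll3 also among the closest. Ntrk2 was most like Ppp1r3c (r = 0.950), Aoc3, Clic5, Scara5 and Pla1a, and Ntrk3 was most like Pfkfb1 (r = 0.929), Mlxipl, Ankef1, Acsm3 and Lgals12. Bdnf was most like Kctd15 (r = 0.931), Tbc1d19, Entpd4, Efr3b and Sgcd. Ngfr, led by Pea15a, 6330403L08Rik, Tmem198b, Bok and Eci2, and Ntf3, led by Aqp4, Ccl11, Dgkb, Frmd7 and Pyurf, had no gene above r = 0.870.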

How the data were processed

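The authors sequenced stranded total RNA libraries depleted of ribosomal RNA, pseudo-aligned the reads with Kallisto and deposited, per transcript, estimated counts without normalization and TPM values scaled by effective length. The labels name GRCh38 and the methods GRCm38, and the transcript identifiers are of mouse. Whether Kallisto used strand is not given in the sources used here. Of 137436 transcripts, 98.3% matched GENCODE M21 (GRCm38) without version, which left 0.667% to 3.90% of counts per library unassigned. The estimated counts deposited by the authors were summed per gene and rounded, and the deposited TPM were summed.

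Groups were taken from the labels. The SD, n and tests treat libraries as independent, although naïve libraries share mice, so the precision can be overstated. Each library is a pool of mice. Genes passing filterByExpr were fitted with edgeR 4.0.16 (TMM, quasi-likelihood) in R 4.3.3, on 15 libraries without day 7 contralateral for comparisons that do not use it and on all 18 otherwise. The call was FDR at most 0.05 and at least 1.5-fold. The fit was tested on simulated data. Shares of transcript classes were computed for genes with at least 10 estimated counts in every library compared and tested by exact two-sided permutation with Benjamini-Hochberg adjustment. The floor was 3 estimated counts per library.

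The alternatives were size factors of DESeq2, DESeq2 1.42.0, limma-voom (limma 3.58.1), no filter, a length offset, other thresholds, other sets of libraries, the omission of each library, shares from TPM, a minimum of 30 counts and a floor of 10. Of the 19 lists, at most 4 called genes with the largest change were named each. Ece1, Calcrl, Ramp1, Uchl1, Scn10a, Mbp, Chad, Plin4 and S100a9 were named outside this rule, after their values were seen. The 5 genes most like each member by r of log2 CPM (prior count 2) were also named, and some genes that these rules pick are not reported here. The members and lists were chosen with earlier results of these data known. The study treated both knees of a mouse as correlated, which was not done here because the labels do not pair them.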

Additional observations from a re-analysis of the deposited data

Results flagged for a closer look

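The injury effect on Tacr1, injured over contralateral on the log2 scale, differed between the 2 time points by 2.431 (FDR = 0.0180 by edgeR), from a test of the difference itself. That call was lost without day 1 contralateral replicate 3, without day 7 injured replicate 3 and at an FDR of at most 0.01. All 3 day 7 injured libraries were above all 3 day 7 contralateral libraries, while the day 1 injured and day 1 contralateral libraries overlapped. No naïve library lay apart from the others for any of the 8 genes by Dixon's criterion, and the groups of 3 libraries were too small for it.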

How the results depend on the processing

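No paired analysis was possible because no label links the 2 knees of a mouse. Of 665 alternative values of 54 results, 598 kept their direction, their side of the threshold and, for counts, stayed within 1.5 times. With no fold limit 6291 genes were called for day 7 injured over naïve and 5160 over day 1 injured, where an FDR of at most 0.01 left 1895. At that FDR the difference of injury effects called 344 genes and 0 members. Over day 1 injured, DESeq2 and the length offset each called 2 members, adding Ntrk3. DESeq2 called 15 genes for day 1 injured, 2 for day 1 contralateral and 31 for day 7 contralateral over naïve, and with only the compared groups in the fit 1 member was called over day 7 contralateral. Without the filter the count over naïve stayed at 3, but with Tac1 in place of Ngfr. Leaving out each library gave 1 to 4 members called over naïve, 1 to 3 over day 7 contralateral, 1 to 2 over day 1 injured and 0 to 1 for the difference of injury effects, with 402 to 962 genes (402 without day 7 injured replicate 3, 465 without day 1 contralateral replicate 3 and 496 without day 1 injured replicate 1). The sign of the Ntrk2 log2 fold change turned with the length offset (0.0864 over naïve, 0.0154 over contralateral) and limma-voom (0.0658 over naïve, 0.0393 over day 1 injured), and it ranged from -0.16 to 0.16 over naïve, -0.0959 to 0.0108 over contralateral and -0.606 to 0.0920 over day 1 injured as libraries were left out. For Ntf3 the ranges were -0.18 to 1.02 over contralateral and -0.36 to 0.52 over day 1 injured. The difference in the share of the truncated Ntrk2 class over naïve was -3.43 percentage points from TPM and -2.46 to 2.82 as libraries were left out, and over contralateral -8.64 from TPM and -4.13 to 1.15 as libraries were left out. For the kinase class of Ntrk3 these ranges were -3.26 to 0.783 and -0.740 to 3.35, and for its truncated class over contralateral -6.21 to 0.879. A floor of 10 counts would place 10 pairs of gene and group at the floor in place of 5. Of 60 list genes called over naïve, 39 stayed called under every alternative, and of 54 over contralateral, 26, with no sign turned. The cause of these changes was not tested. Bdnf, Ntf3, Tac1 and Calca had at most 39 estimated counts in any library.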
